A study of Mus musculus with 9 samples.

Results

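The genes Kcnb2, Rcvrn, Limch1, Chrm3, Cldn5, Matn4, Clca3a1 and Gpr183 are 8 of the 31053 genes counted in these single-cell libraries, and each is best known from a tissue other than blood or from mature immune cells. They were selected on their near absence from the stem-like cells of young mice and their gain in those of old mice, so the difference between aged and young samples chose them and is given here as a description without a test. RNA was sequenced from single LSK cells (lineage-negative, c-Kit+ and Sca-1+ bone marrow cells, which hold the blood stem cells and early progenitors) of C57BL/6 mice, with 1 library of 10x Genomics 3′ chemistry for each of 3 young, 3 aged and 3 CASIN samples. Young mice were 10 to 12 weeks old and aged mice over 80 weeks, and both received the vehicle cyclodextrin. CASIN mice were aged mice that received the Cdc42 activity inhibitor CASIN in cyclodextrin, at 25 mg/kg by intraperitoneal injection every 24 h for 4 days, and marrow was taken on day 5. Cells were viably frozen and thawed before sequencing, and the labels do not say how many mice gave cells to a sample, so that p-values measure the spread between these samples.

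A voltage-gated channel opens with a change in membrane voltage, a muscarinic or oxysterol receptor passes an outside signal to G proteins, and a claudin seals the contact between neighbouring cells. Genes of these families are usually read in the cells that use them: Kcnb2 in neurons, Rcvrn in photoreceptors, Chrm3 in smooth muscle and glands, Cldn5 in endothelium, and Gpr183 in lymphocytes and dendritic cells. Matn4 is known from cartilage matrix and has also been described in blood stem cells.

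The 9 samples fell into 2 sequencing batches that differed in more than the date of sequencing. Batch 1 held young 1 and 2, aged 1, and CASIN 1 and 2, and batch 2 held young 3, aged 2 and 3, and CASIN 3. In the batch 1 libraries 80.6% to 88.0% of cells had a UMI of the Y-linked genes Ddx3y, Uty, Kdm5d or Eif2s3y and at most 0.192% had one of Xist, whereas in the batch 2 libraries 99.4% to 100% had Xist and at most 0.167% a Y-linked UMI. Batch and the sex of the mice therefore cannot be told apart in these samples, and every batch value below is also a value of sex. The median mitochondrial share of the cells kept was 2.65% to 3.49% in batch 1 and 5.03% to 7.0% in batch 2. After filtering, 15856 of 32387 barcodes were kept, with a median of 9531.5 to 14622 UMIs per cell, and 306 of the kept cells carried a barcode that also occurred in another library.

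HSC-like cells are the cells of 4 clusters named from markers of the study's stem cell clusters, with the 8 genes left out of the clustering. HSC-1-like cells were named from stem cell genes such as Procr and Nupr1, HSC-2-like cells from early response genes such as Fos, and HSC-3-like cells from MHC class II genes. On a separate list of stem cell genes the MPP1-like cluster, which is not among the HSC-like cells, scored 0.969 and the HSC-3-like cluster 0.893. HSC-like cells numbered 550, 415 and 301 in the young samples, 739, 509 and 498 in the aged samples, and 438, 641 and 1012 in the CASIN samples. Levels are given as CPM, the UMIs (counted RNA molecules) of a gene in the summed HSC-like cells of a sample, scaled to the same total for every sample, and all 8 genes passed the filter on low counts. A floor of 3 UMIs is used for a count of 0. Intervals and floors cover counting error only.

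Among the receptors and the channel, Kcnb2 and Chrm3 were gained in old cells of both batches. Kcnb2, a subunit of voltage-gated potassium channels, had 0 UMIs in each of the 3 young samples. Its level was 4.48, 3.85 and 2.50 CPM in the aged samples and 5.77, 5.52 and 6.97 CPM in the CASIN samples. The old samples did not overlap with the young samples, which the choice of the gene favoured. The aged and CASIN samples did not overlap with each other, but how many of all genes separate them so was not counted. Against the level that 3 UMIs would give in the young cells, Kcnb2 was at least 17.6-fold higher in aged cells of batch 1 and at least 3.80-fold higher in those of batch 2.

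Chrm3, the muscarinic acetylcholine receptor that signals through Gq, stood at 0.424, 0.214 and 0.843 CPM in the young samples. It stood at 13.3, 11.2 and 13.1 CPM in the aged samples and at 12.5, 13.7 and 21.7 CPM in the CASIN samples. All 6 old samples lay above the 3 young ones, which the choice of the gene favoured, and CASIN 3 was the highest. The ratio of aged to young was 39.1 in batch 1 (95% counting interval 14.8 to 146) and 14.35 in batch 2 (4.795 to 70.55).

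Gpr183, the receptor for oxysterols that guides immune cells in lymphoid tissue, behaved otherwise. Its level was 0.847, 1.93 and 1.97 CPM in the young samples, 126, 10.6 and 5.41 CPM in the aged samples and 75.4, 90.7 and 24.0 CPM in the CASIN samples. The old samples of batch 1 were all above those of batch 2, and the aged samples of batch 2 were the old samples nearest to young. Within batch 1 aged cells held 98.9 times the young level (59.6 to 177), and within batch 2 they held 4.12 times (1.91 to 10.6).

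Rcvrn, the calcium-binding protein recoverin that restrains rhodopsin kinase in photoreceptors, was gained in batch 1 and was hardly counted in batch 2. The young samples gave 2, 1 and 0 UMIs, the aged samples 125, 1 and 1, and the CASIN samples 37, 74 and 5. These are 16.0, 0.193 and 0.208 CPM for aged and 6.10, 12.4 and 0.536 CPM for CASIN. The high samples were aged 1, CASIN 1 and CASIN 2, which are the old samples of batch 1. The ratio of aged to young in batch 1 was 62.7 (21.0 to 308), and no fold is given in batch 2, where old and young were under the floor of the young sample, 0.843 CPM.

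Cldn5, the main claudin of endothelial tight junctions, split the batches most widely of the 8. It stood at 5.65, 8.99 and 0 CPM in the young samples, 151, 1.93 and 0.624 CPM in the aged samples and 163, 145 and 4.18 CPM in the CASIN samples. The young samples of batch 1 were above both aged samples of batch 2, so that across all samples the young and aged groups overlapped. Within batch 1 the ratio of aged to young was 21.6 (17.3 to 27.4), and within batch 2 aged cells were at least 1.54-fold above the floor of the young sample, which had no UMI.

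Limch1, a LIM and calponin homology domain protein that activates non-muscle myosin, gave 0, 1 and 0 UMIs from the young samples. From the aged samples it gave 48, 4 and 2 UMIs, or 6.15, 0.770 and 0.416 CPM, and from the CASIN samples 39, 31 and 19, or 6.43, 5.19 and 2.04 CPM. The old samples of batch 1 were again the highest. The ratio of aged to young in batch 1 was 72.3, with an interval from 12.4 to 2913 because it rests on 1 young UMI. In batch 2 no fold of aged over young is given, and CASIN cells were at least 2.42-fold above the young floor.

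The secreted and surface-bound products were gained in both batches, and more so in batch 1. Matn4, a matrilin of the extracellular matrix, stood at 1.13, 1.28 and 1.12 CPM in the young samples, 47.3, 17.1 and 6.45 CPM in the aged samples and 50.3, 37.8 and 24.3 CPM in the CASIN samples. Clca3a1, a chloride channel accessory protein, stood at 3.95, 6.42 and 4.78 CPM in the young samples, 91.2, 55.1 and 43.1 CPM in the aged samples and 87.9, 102 and 57.7 CPM in the CASIN samples. For both genes every old sample lay above every young one, which their choice favoured, and the old samples of batch 1 lay above those of batch 2. The ratio of aged to young was 39.7 (23.4 to 73.3) in batch 1 and 10.7 (4.06 to 39.8) in batch 2 for Matn4, and 18.5 (14.1 to 24.6) and 10.3 (6.38 to 17.9) for Clca3a1.

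**Figure D1:**
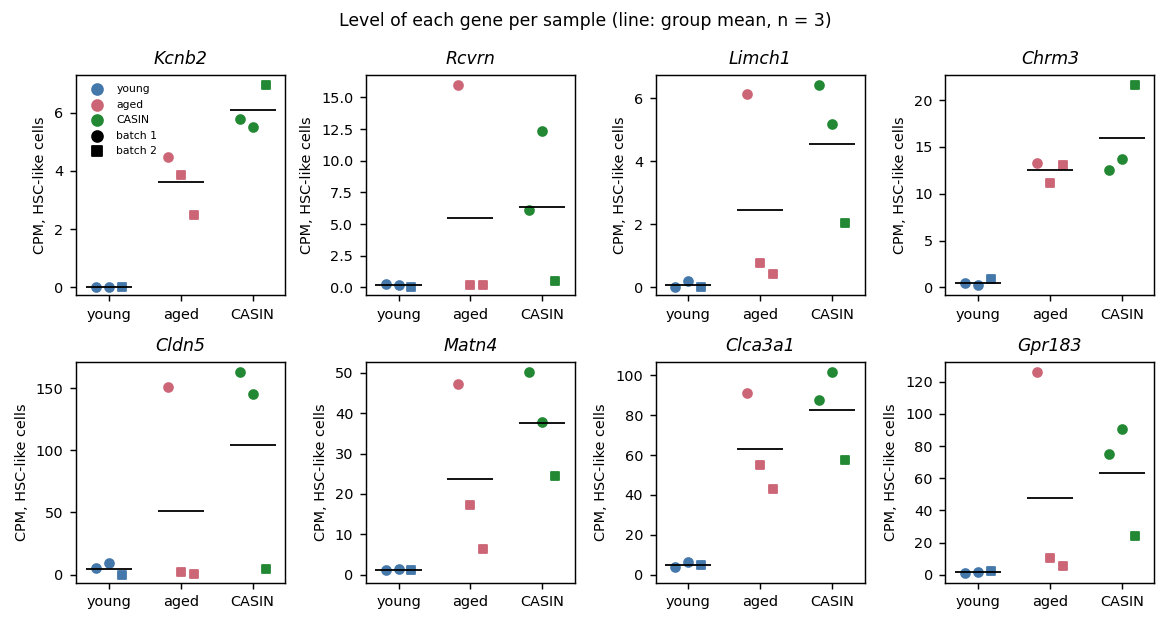
Each panel plots 1 gene, with its CPM over HSC-like cells on a linear y axis from 0, 1 point per sample, circles for batch 1, squares for batch 2 and a line at the mean of each group of 3. The young points lie near 0 in every panel, and for Cldn5 the old samples of batch 1 stand at 145 to 163 CPM while those of batch 2 stand at 0.624 to 4.18 CPM.

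With the batch as a term in edgeR's quasi-likelihood model, the log2 ratio of aged to young cells was 5.77 ± 0.63 (SE) for Rcvrn, 5.60 ± 0.66 for Gpr183, 5.59 ± 0.84 for Limch1, 4.81 ± 0.50 for Matn4, 4.65 ± 0.39 for Chrm3, 4.32 ± 0.32 for Cldn5 and 4.00 ± 0.21 for Clca3a1. Over all 11998 genes tested, 8.56% were called between aged and young, and nothing is read from the 8 genes against that share. These fits depend on 1 library for some of the genes: without aged 1, the value fell to 3.70 for Rcvrn, 4.09 for Limch1, 3.81 for Gpr183 and 2.80 for Cldn5. The fold of Kcnb2, with no young UMI, depends on the prior count of the fit and is given only as the bounds above.

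Whether CASIN changed the level of these genes in old cells was asked by comparing CASIN with aged samples, of which the aged had taken part in choosing them. None of the 8 passed an adjusted p of 0.05 in edgeR, where 0% of the 11998 genes did (321 genes had an unadjusted p under 0.05, and DESeq2 called 0 genes). Log2 fold changes of CASIN over aged were 0.72 ± 0.31 (SE) for Kcnb2, 0.42 ± 0.21 for Chrm3, 0.19 ± 0.39 for Gpr183, -0.60 ± 0.39 for Rcvrn, 0.25 ± 0.25 for Cldn5, 0.42 ± 0.41 for Limch1, 0.38 ± 0.29 for Matn4 and 0.15 ± 0.15 for Clca3a1, each with an adjusted p of 0.999926. Of the 8, 7 were above 0, beside a median of -0.003365 over all genes tested. The share of all genes above 0 was not counted. With a mitochondrial limit of 5%, which left out a larger share of batch 2 cells, Limch1, Cldn5, Matn4 and Gpr183 were below 0. Within batch 1 the ratio of CASIN to aged was 1.26 for Kcnb2, 1.04 for Clca3a1 and 1.02 for Cldn5. It was 0.576 for Rcvrn, 0.658 for Gpr183, 0.933 for Matn4, 0.946 for Limch1 and 0.985 for Chrm3. Within batch 2, where CASIN 3 is alone, it ran from 1.17 for Clca3a1 to 3.39 for Limch1. Without aged 1, 38 genes were called and none of the 8 was among them. Kcnb2 had an unadjusted p of 0.0418 in edgeR, as 1 of the 321 genes under 0.05. It was higher in all 3 CASIN samples than in the aged samples, and the share of all genes that separate these samples was not counted.

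Between CASIN and young, the samples did not overlap except for Cldn5, where CASIN 3 lay below young 1 and 2, and Rcvrn in CASIN 3, at 5 UMIs, was under the young floor of its batch. The choice of the genes favoured this, and how many of all genes separate these samples was not counted. With the batch as a term, the log2 ratio of CASIN to young cells was 4.15 ± 0.21 for Clca3a1, 4.58 ± 0.30 for Cldn5, 5.08 ± 0.37 for Chrm3, 5.17 ± 0.62 for Rcvrn, 5.18 ± 0.48 for Matn4, 5.79 ± 0.65 for Gpr183 and 6.02 ± 0.78 for Limch1. Kcnb2 was at least 22.1-fold higher in CASIN cells than the young floor in batch 1 and at least 8.26-fold higher in batch 2. No test is given, because near absence in these young samples chose the genes. Over all genes 13.6% were called between CASIN and young.

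The batches were compared over all 9 samples and again within the old samples alone. In the comparison of batch 2 with batch 1, 6 of the 8 genes passed the threshold, all lower in batch 2, beside 70.5% of all genes tested in either direction and 36% in that direction. Rcvrn, among those that passed, met the low-count filter only through the old samples of batch 1, where it was high, which favoured its call. The genes that did not pass were Kcnb2, at -0.09 ± 0.30 (SE, edgeR adjusted p = 0.968), and Chrm3, at 0.30 ± 0.21 (edgeR adjusted p = 0.218). With a mitochondrial limit of 5% both were lower in batch 2, Kcnb2 at -1.60 (edgeR adjusted p = 0.0153) and Chrm3 at -0.89 (edgeR adjusted p = 0.0263). That limit lies under the median mitochondrial share of the kept cells in batch 2 (5.03% to 7.0%) and over that in batch 1 (2.65% to 3.49%). It therefore left out a larger share of batch 2 cells. Without aged 1, Chrm3 was higher in batch 2, at 0.76 (edgeR adjusted p = 0.00934).

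In aged and CASIN samples the log2 difference of batch 1 over batch 2 was 6.08 ± 0.22 (SE) for Cldn5, 5.18 ± 0.44 for Rcvrn, 2.94 ± 0.19 for Gpr183, 2.47 ± 0.37 for Limch1, 1.48 ± 0.24 for Matn4 and 0.87 ± 0.14 for Clca3a1. Rcvrn met the low-count filter only through the old samples of batch 1, the high side here. This favoured the size of its difference and its rank among the genes tested. In the same fit 68.3% of all genes were called, so passing the threshold is common here and the size is what sets genes apart: 0.50% of genes had a larger absolute difference than Cldn5 and 0.750% than Rcvrn, while 40.8% had a larger one than Clca3a1.

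**Figure D2:**
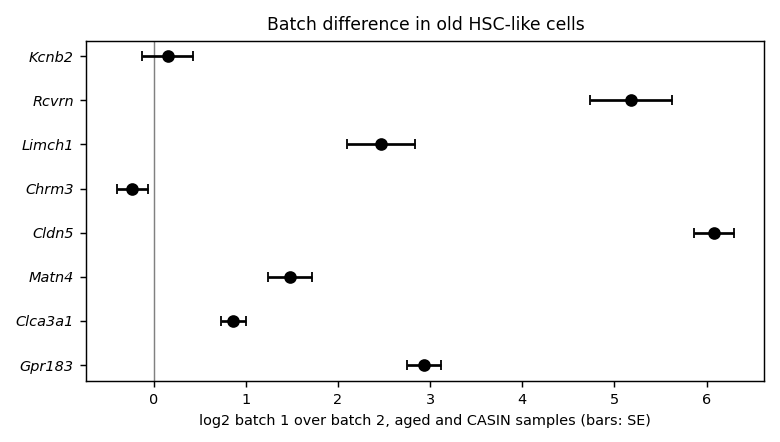
The x axis gives the log2 difference of batch 1 over batch 2 in the HSC-like cells of aged and CASIN samples and the bars its SE, with 1 row per gene. Kcnb2 at 0.15 and Chrm3 at -0.23 lie near 0, while Cldn5 at 6.08 and Rcvrn at 5.18 lie farthest to the right.

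Other measures moved with the batch as well. The 14 genes of a handling-response list (early response genes that rise when cells are dissociated or thawed) summed to 7728 to 13615 CPM in batch 1 and 1804 to 4352 CPM in batch 2, with 10 of 14 lower and 1 higher in batch 2 (median log2 fold change -1.83). Of all genes tested, 36% were lower in batch 2 and 70.5% were called in either direction. HSC-2-like cells, the subset named from such genes, numbered 137 to 241 per sample in batch 1 and 30 to 61 in batch 2. Of the 14 handling-response genes, 10 were higher in aged than in young cells, beside 8.56% of all genes called in either direction. The largest log2 fold changes were those of Nr4a1 (1.68, edgeR adjusted p = 0.00271), Atf3 (1.48, 0.00323), Junb (1.40, 0.00239) and Klf2 (1.33, 0.00867). Within HSC-1-like cells alone, pooled over old samples, Cldn5 was at 173 CPM in batch 1 and 3.13 CPM in batch 2, and Rcvrn at 14.1 and 0.499 CPM. The part of sex, mitochondrial share or handling in the batch difference was not tested.

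CASIN over aged was also compared between the batches, in a model with a mean for each group and batch that was added after the data were seen. Aged 1 in batch 1 and CASIN 3 in batch 2 are lone samples there, and the fit assumes that they vary like the other groups. For Gpr183 the log2 difference, batch 1 minus batch 2, was -2.25 ± 0.37 (SE), with 126 CPM in aged and 83.0 CPM in CASIN cells of batch 1 against 8.10 and 24.0 CPM in batch 2. The difference was below 0 for each of the 8 genes, from -0.25 for Clca3a1 to -2.25 for Gpr183. A test of this difference was run for each gene and its p-values were seen. They are left out because the aged samples took part in choosing these genes, so the values are a description.

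The genes differed in where they stood across the LSK subsets. Pooled over the old samples of batch 1, Cldn5 stood at 173 CPM in HSC-1-like, 147 in HSC-2-like, 114 in interferon-like, 84.5 in MPP1-like, 79.9 in HSC-3-like, 28.6 in MPP3-like, 15.4 in MPP2-like and 7.23 in LMPP-like cells. Gpr183 ran from 126 CPM in HSC-1-like and 101 in interferon-like to 5.08 CPM in LMPP-like cells. Kcnb2 and Limch1 were also highest in HSC-1-like cells, at 6.16 and 7.23 CPM, and Chrm3 stood at 14.9 CPM in interferon-like cells (17 UMIs) and 13.8 CPM in HSC-1-like cells. This order varied by sample. In aged 1 Kcnb2 stood at 3.84 CPM in HSC-1-like and 6.29 CPM in HSC-2-like cells, and Gpr183 at 149 CPM in HSC-1-like and 161 CPM in MPP1-like cells. In batch 2 Kcnb2 and Limch1 were again highest in HSC-1-like cells, and Chrm3 stood at 19.8 CPM there and 3.37 CPM in interferon-like cells.

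Rcvrn, Clca3a1 and Matn4 had another order: in batch 1 their highest pooled levels, 51.2, 151 and 61.6 CPM, were in MPP2-like cells, the subset named from megakaryocyte genes, against 14.1, 106 and 53.5 CPM in HSC-1-like cells. For Clca3a1 and Matn4 the pooled levels in MPP1-like cells were near these, at 139 and 56.7 CPM, and the order varied by sample. In aged 1 Clca3a1 stood at 175 CPM in MPP1-like and 157 CPM in MPP2-like cells. Over the CASIN samples of batch 1 the mean of Matn4 was 54.7 CPM in MPP1-like, 52.9 in HSC-1-like and 52.3 in MPP2-like cells. In batch 2 Clca3a1 and Matn4 were highest in HSC-1-like cells, at 66.1 and 22.6 CPM against 54.6 and 8.81 CPM in MPP2-like cells. In the MP granulocyte-like cells Gpr183 alone of the 8 had a UMI, with 2 in the aged samples. This class held 79 cells at a median of 2604 UMIs, and 3 UMIs are 7.30 CPM in its aged cells. Absence of the other genes cannot be read from it.

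In MPP2-like cells Rcvrn stood at 48.9 CPM in aged 1, 44.0 in CASIN 1 and 59.6 in CASIN 2, above the 16.0, 6.10 and 12.4 CPM of HSC-like cells of the same 3 samples. In batch 2 it was at 7.70, 0 and 0 CPM in aged 2, aged 3 and CASIN 3. Clca3a1 stood at 157, 122 and 173 CPM in MPP2-like cells of aged 1, CASIN 1 and CASIN 2, and Limch1 had no UMI in MPP2-like cells of any sample. These class differences were not tested.

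**Figure D3:**
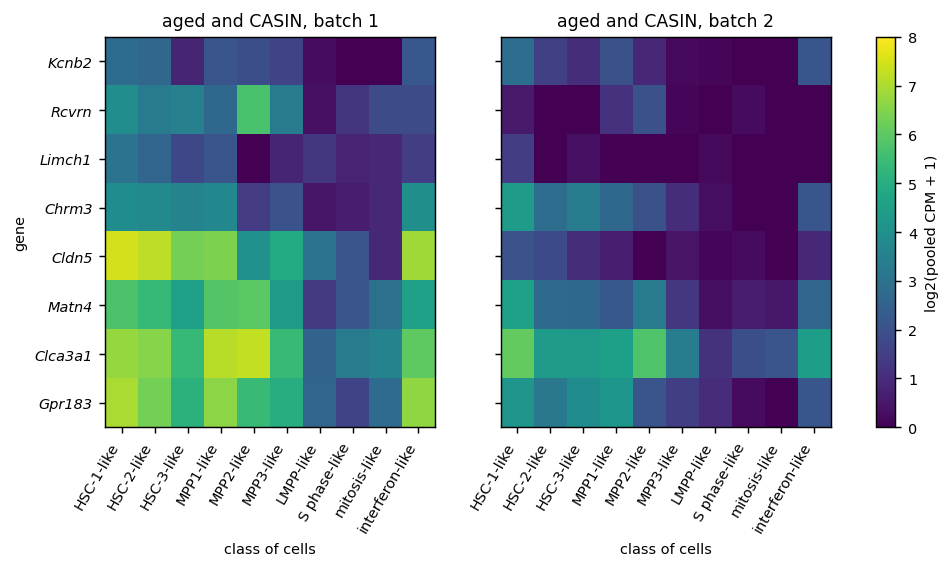
Colour gives log2(pooled CPM + 1) over the aged and CASIN samples of batch 1 (left) and batch 2 (right), with genes in rows and classes of cells in columns. Rcvrn is brightest in MPP2-like cells of batch 1, at 51.2 CPM, and in the HSC-like columns Cldn5 is bright in batch 1 and dark in batch 2.

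In single HSC-like cells, a UMI of Cldn5 was seen in 43.4%, 47.7% and 34.0% of cells in aged 1, CASIN 1 and CASIN 2, and in 1.57%, 0.602% and 2.77% in aged 2, aged 3 and CASIN 3. After thinning each cell to 4000 UMIs, the shares were 30.2%, 30.8% and 25.5% in the former and 0.790%, 0.415% and 1.59% in the latter. LMPP-like cells of the same libraries, which lie at a median of 12961 UMIs against 9627 in HSC-1-like cells, had Cldn5 in 4.27%, 2.79% and 1.25% in batch 1 and at most 0.276% in batch 2. Clca3a1 was seen in 25.1% to 53.2% of old HSC-like cells and in at most 4.27% of LMPP-like cells. Kcnb2 was seen in 2.01% to 6.39% of old HSC-like cells and in 0 of 1266 young ones.

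How many of the 8 genes a single cell held depended on the batch. In aged 1, 650 of 739 HSC-like cells held at least 1 of them, and 31 held 5 or more, with a maximum of 6. In young 1, 2 and 3, 7.64%, 10.6% and 6.64% of cells held at least 1.

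After the same thinning, 2 or more genes were seen in 0.183%, 0.277% and 0.0671% of cells in the young samples, 34.5%, 5.35% and 2.89% in the aged samples and 31.0%, 30.2% and 8.54% in the CASIN samples. Without thinning the shares were 65.8%, 15.7% and 8.63% for aged and 59.8%, 51.2% and 23.0% for CASIN. The mean was 23.2% ± 12.7 (SD, n = 3) for CASIN and 14.3% ± 17.6 (SD, n = 3) for aged, a difference of 8.98 percentage points that was smaller than the spread between samples (two-sided exact permutation test p = 0.6, where 3 against 3 allows no p under 0.1). Within batch 1 CASIN was 3.94 points lower (a difference of -3.94), and within batch 2 it was 4.41 points higher. Of the 3 samples, 2 of CASIN and 1 of aged are in batch 1, where the shares are high. Thinning left out 6 young, 33 aged and 27 CASIN cells.

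**Figure D4:**
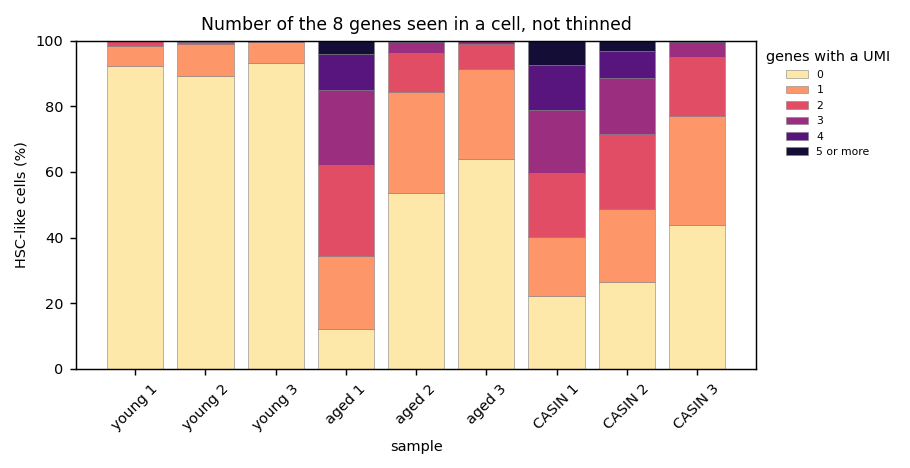
Each bar is 1 sample, divided by the percent of its HSC-like cells that held 0 to 4, or 5 or more, of the 8 genes, without thinning. Aged 1, CASIN 1 and CASIN 2 reach 5 or more, in 31, 33 and 20 cells, and CASIN 3 in 2.

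In most pairs, cells with a UMI of both genes were a little more frequent than the separate shares would give. The cells with both genes of a pair were counted within each sample and HSC-like subset, at 4000 UMIs a cell, and set beside the product of both shares. The HSC-1-like subset joins clusters of 1682 and 1446 cells, with stem cell list scores of 1.245 and 1.662. These clusters were not kept apart, and their part in the ratios was not tested. In the old samples of batch 1, 20 of the 22 pairs with at least 5 cells from the product had more cells than it, with a median ratio of 1.14 and a range from 0.914 for Kcnb2 with Clca3a1 to 1.58 for Limch1 with Cldn5. Cldn5 and Clca3a1 met in 168.6 cells on average over the draws, against 149.4 from the product, of 1794 cells.

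In batch 2, 6 of 7 such pairs were above the product, with a median ratio of 1.17, the highest being Matn4 with Gpr183 at 1.82. In batch 1, 3 or more of the genes were held by 9.90% of old cells, beside 7.81% from the product of shares, and by 0.681% beside 0.463% in batch 2. Over all HSC-like cells of a sample, with the subsets not kept apart, the ratio summed over pairs was 1.07, 1.62 and 1.59 in the aged samples and 1.40, 1.33 and 1.28 in the CASIN samples. These ratios carry no test, cells of 1 sample share its library, and the part of free RNA in them was not tested.

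**Figure D5:**
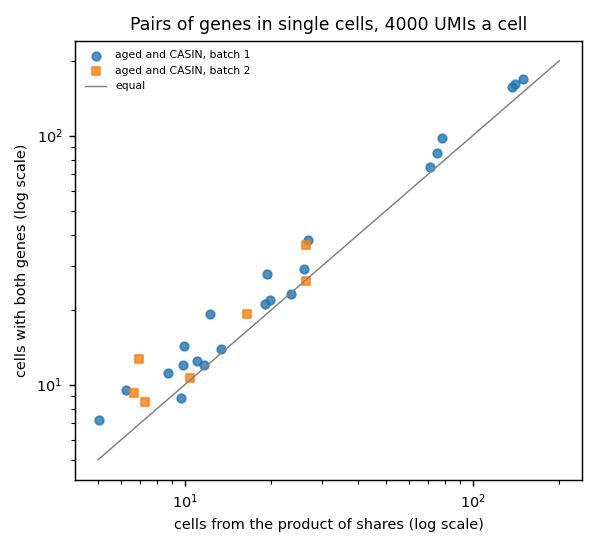
Each point is a pair of genes in old HSC-like cells, with cells from the product of shares on the x axis and cells with both genes on the y axis, both logarithmic, for the pairs with at least 5 cells from the product. Most points lie a little above the line of equality, 20 of 22 in batch 1 and 6 of 7 in batch 2.

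The photoreceptor, neuron and cartilage lists were nearly absent, and the endothelial, epithelial and lymphocyte lists were not. Of 9 photoreceptor genes, Prph2 and Crx had no UMI in HSC-like cells of any sample, and the list summed to 4.8 to 11.7 CPM. Of 10 neuron genes 0 could be tested, Rbfox3 and Gap43 had no UMI, and the list summed to 1.4 to 3.7 CPM. Of 9 cartilage genes 0 could be tested, and Acan, Matn3 and Col9a1 had no UMI. The endothelial list summed to 238 to 345 CPM and the epithelial list to 147 to 370 CPM. The endothelial junction gene Cdh5 had 8 UMIs over all samples, and of 8 endothelial genes tested, Kdr (log2 fold change of aged over young 1.22 ± 0.33, edgeR adjusted p = 0.0399) and Tie1 (0.50 ± 0.11, edgeR adjusted p = 0.0163) rose in aged cells and Emcn fell by 0.53 (edgeR adjusted p = 0.0385). The lymphocyte list summed to 40.7 to 606 CPM with no UMI of Cd3e, the stroma list to 8.05 to 109 CPM, and none of their 4 tested genes each passed, while of 4 epithelial genes tested Epcam rose (1.69 ± 0.32, edgeR adjusted p = 0.00735).

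Relatives and partners of the genes were often too low to test. Of 11 other Kv2-type subunits 2 could be tested and 0 passed, and 6 had no UMI. Of 13 calcium sensor genes with the recoverin target Grk1, which had no UMI, 5 were tested and Kcnip3 rose (1.29 ± 0.26, edgeR adjusted p = 0.0116). Of 15 muscarinic signalling genes 10 were tested and Itpr1, a calcium release channel, rose (0.57 ± 0.12, edgeR adjusted p = 0.0120), while Chrm2, Chrm4 and Chrm5 had no UMI.

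Among claudin and tight junction genes, Jam2 (2.23 ± 0.32, edgeR adjusted p = 0.0023) and Ocln (1.21 ± 0.22, edgeR adjusted p = 0.00735) rose in aged cells. Jam2 stood at 5.08, 7.92 and 37.7 CPM in the young samples and 59.4, 101 and 82.6 CPM in the aged samples, and both Jam2 and Ocln were higher in batch 2 than in batch 1, the opposite of Cldn5. No other Clca gene and no other matrilin could be tested. Of 4 genes of oxysterol synthesis 2 were tested, and of 8 relatives of Limch1 and non-muscle myosin genes 7, and 0 passed in either list. Clca3a1 has related copies in the Clca family, and reads shared with a copy may be left uncounted or misassigned. The level of Clca3a1 is uncertain to that extent.

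The place of each gene was read from GENCODE vM21 on GRCm38. Kcnb2 (chr1:15287254-15723750), Rcvrn (chr11:67695326-67703333), Limch1 (chr5:66745827-67057158) and Cldn5 (chr16:18776847-18778262, a single exon) lie on the plus strand. Chrm3 (chr13:9875486-10360847), Matn4 (chr2:164389393-164405160), Clca3a1 (chr3:144729677-144760977) and Gpr183 (chr14:121952551-121965195) lie on the minus strand. Of the 48 nearest genes, 3 on each side, 13 could be tested between aged and young, of which 3 were higher and 1 lower, beside 8.56% of all genes called. The lower one was Cdc45, next to Cldn5 (-1.13, edgeR adjusted p = 0.0496).

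The neighbourhood of Matn4 held 2 of the 3 higher ones. Slpi, a protease inhibitor gene 298 bases away, was higher in aged cells (2.35, edgeR adjusted p = 0.0157), as was the syndecan gene Sdc4 (0.71, edgeR adjusted p = 0.0167). Rbpjl, which overlaps Matn4 by 2020 bases on the opposite strand, had no UMI in young cells and stood at 11.4, 1.16 and 0.832 CPM in the aged samples and 8.08, 11.7 and 2.14 CPM in the CASIN samples. Rbpjl was also the gene whose pattern was most like that of Rcvrn, which is on another chromosome. The remaining higher neighbour was the antisense gene 1810041H14Rik, near Gpr183 (1.42, edgeR adjusted p = 0.0105). Ubac2, which spans Gpr183 on the other strand, did not pass (0.39 ± 0.13, edgeR adjusted p = 0.0970).

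Likeness of pattern was measured as Pearson's r of log2(CPM + 1) over 96 sums per sample and class, among the 11998 genes tested, as a description. The sums share libraries and depth. The most alike were Osmr and Sbspon for Kcnb2 (0.834 and 0.820), Osmr and Serpinb6a for Chrm3 (0.867 and 0.849), Cd38 and Hoxb8 for Gpr183 (0.90 and 0.899), and Rbpjl and Tdrd9 for Rcvrn (0.851 and 0.844). For the others they were Smtnl1 and Klrb1c for Cldn5 (0.894 and 0.879), Ntf3 and Cldn5 for Limch1 (0.763 and 0.720), Cavin2 and Hoxb8 for Matn4 (0.908 and 0.908), and Cavin2 and Vwf for Clca3a1 (0.924 and 0.917).

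Promoter windows from RefSeq on GRCm38.p6, of 300 bases around the start and mostly before it, were at hand for 6 of the 8 genes, in 9 windows. Those of Cldn5 and Gpr183, which were far higher in batch 1, and of Clca3a1 and Chrm3, which were gained in both batches, are shown 5′ to 3′ with capitals marking the letters of any motif searched.
Cldn5, chr16:18776597-18776896, plus strand: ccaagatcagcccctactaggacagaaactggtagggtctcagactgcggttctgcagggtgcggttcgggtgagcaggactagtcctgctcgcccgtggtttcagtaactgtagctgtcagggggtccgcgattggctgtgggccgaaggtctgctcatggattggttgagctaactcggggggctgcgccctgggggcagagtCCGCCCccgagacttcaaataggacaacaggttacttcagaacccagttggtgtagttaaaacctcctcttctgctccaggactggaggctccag
Gpr183, chr14:121965144-121965443, minus strand: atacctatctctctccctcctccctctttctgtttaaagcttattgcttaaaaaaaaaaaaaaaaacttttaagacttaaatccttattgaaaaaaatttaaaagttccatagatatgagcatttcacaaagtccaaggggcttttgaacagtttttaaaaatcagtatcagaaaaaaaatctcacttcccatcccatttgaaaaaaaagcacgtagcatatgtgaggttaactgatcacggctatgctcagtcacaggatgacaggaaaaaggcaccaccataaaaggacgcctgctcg
Clca3a1, chr3:144760928-144761227, minus strand: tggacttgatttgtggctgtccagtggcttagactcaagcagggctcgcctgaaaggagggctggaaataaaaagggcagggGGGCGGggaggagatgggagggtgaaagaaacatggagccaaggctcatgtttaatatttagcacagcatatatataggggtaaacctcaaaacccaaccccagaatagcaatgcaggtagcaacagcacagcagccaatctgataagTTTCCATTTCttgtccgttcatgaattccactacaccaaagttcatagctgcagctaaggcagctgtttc
Chrm3, chr13:10360754-10361053, minus strand: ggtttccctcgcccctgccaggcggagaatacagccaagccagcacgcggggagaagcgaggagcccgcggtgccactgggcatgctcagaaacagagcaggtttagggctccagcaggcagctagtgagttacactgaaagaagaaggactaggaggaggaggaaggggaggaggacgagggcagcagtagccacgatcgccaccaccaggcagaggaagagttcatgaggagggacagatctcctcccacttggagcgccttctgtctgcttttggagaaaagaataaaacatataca
The motifs, searched on both strands, were GGGCGG for Sp and Klf factors, TGTGGT for Runx factors, AGATAA for Gata factors, TGACGTCA for Creb, TGANTCA for AP-1, CACGTG for the E-box, the interferon response element, TATAAA for the box of that name and CCGGAAG for Ets factors. GGGCGG was in 4 of the 9 windows (of Cldn5, Clca3a1, Limch1 and Matn4), beside 35.7% of 32851 promoters. The interferon response element was in the window of Clca3a1 (3.44% of promoters) and TATAAA in 1 window of Limch1 (13.6%). The windows of Gpr183 and Chrm3 held none of these letters, and the letters of Runx (16.8% of promoters), Gata (11.2%), Creb (1.79%), AP-1 (7.81%), the E-box (7.15%) and Ets (8.86%) were in no window. No match says only that these letters are not in these windows.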

How the data were processed

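The 8 genes, the gene lists and the tests were chosen with earlier results of these data known. Per the labels and the study's methods, the authors mapped reads to GRCm38 with Cell Ranger 3.1.0 and deposited raw UMI counts per gene and barcode for each of the 9 libraries, without normalization. The libraries held 19237354 to 42780953 UMIs. Barcodes with over 10% mitochondrial UMIs, over 6000 genes, or UMIs outside 1000 to 40000 were left out, as were those with a residual above 0.4 from log genes on log UMIs, and genes in fewer than 3 cells. Samples were integrated on principal components, to save memory, and clustered with Seurat 5.3.0 (3000 features, none of the 8 genes among them, 16 clusters at resolution 0.8), and classes were named from marker lists. Scrublet (scanpy 1.11.5) marked 67 of the kept cells, too few for the caller to have worked, so doublets were kept.

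UMIs were summed per sample and class and tested with edgeR 4.0.16 (TMM, filterByExpr, quasi-likelihood, all 9 samples, sequencing batch as a term, Benjamini-Hochberg adjustment, threshold 0.05), in R 4.3.3. Cells were thinned to 4000 UMIs without replacement, as the mean of 20 draws, in Python 3.11.15 with SciPy 1.17.1. The steps were tested on simulated data. Named beside the 8 genes were the 2 genes most like each in pattern and, of the lists, up to 4 that passed and those with no UMI. Not every result of these lists is reported here.

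A test of each gene between CASIN and young samples had been planned. It was run and its p-values were seen, and they were then left out because the young samples had chosen the genes. The fit with a mean for each group and batch was added after the data were seen, and its comparisons with young samples were run but are not given, since several genes had no UMI in the young sample of batch 2. Alternatives were DESeq2 1.42.0 (test or size factors), no filter, no batch term, the replicate block, only the groups compared, resolution 0.4, a mitochondrial limit of 5%, no Scrublet doublets, other thinning, each sample left out, and, added later, no shared barcodes and no cells above the 95th percentile of UMIs.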

Additional observations from a re-analysis of the deposited data

Results flagged for a closer look

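In a fit added after the data were seen, the difference between CASIN and aged HSC-like cells was compared between the batches. For Gpr183 the log2 difference, batch 1 minus batch 2, was -2.25 ± 0.37 (SE). Gpr183 was picked out by a test of this difference, whose p-values are left out because the aged samples took part in choosing the gene. The value is therefore a description. CASIN cells held 0.658 times the aged level in batch 1 and 2.96 times in batch 2. The comparison has 1 aged and 2 CASIN samples in batch 1 and 2 aged and 1 CASIN sample in batch 2. The lone samples are assumed to vary like the other groups, and batch and sex cannot be told apart in it.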

How the results depend on the processing

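Counts of genes called between groups depended on the batch term. For aged over young they were 1027 with it, 6 with no batch term and 533 with only the groups compared, and for CASIN over young 1630, 15 with no batch term and 1008 with a mitochondrial limit of 5%. Leaving out 1 sample gave 216 (without aged 1) to 1315 genes for aged over young, with 425 without young 1 and 612 without young 2. It gave 716 (without young 1) to 2070 for CASIN over young, with 742 without CASIN 3, 1031 without CASIN 2 and 1053 without young 2, and 0 to 38 for CASIN over aged, where 38 were called without aged 1 and none of the 8 genes was among them. In the comparison of batches 6 to 7 of the 8 genes were called with 1 sample left out, and with a mitochondrial limit of 5% both Kcnb2 and Chrm3 were called as well.

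Replicate numbers were shared between groups. Same-numbered samples of 1 batch correlated positively in their deviations from the group means (r of 0.699 to 0.873), and those of different batches negatively (-0.668 and -0.708). The batch was not removed from these deviations, so they cannot show whether a number pairs samples beyond their batch. With the replicate block in place of the batch term, 4 genes were called for aged over young, 18 for CASIN over young and 0 for CASIN over aged.

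CASIN over aged changed sign for 5 of the 8 genes, none of which passed in any setting. Rcvrn, at -0.60, was 0.13 with no batch term and 0.99 with the replicate block, and -0.97 to 1.37 when 1 sample was left out. With a mitochondrial limit of 5%, which left out a larger share of batch 2 cells, Limch1 was -0.0075, Cldn5 -0.072, Matn4 -0.061 and Gpr183 -0.49. With 1 sample left out they ranged from -0.12 to 1.75, -0.015 to 1.67, -0.080 to 1.09 and -0.52 to 1.71. For batch 2 over batch 1, Chrm3 was -0.89 with the limit of 5% and -0.12 to 0.76 with 1 sample left out, and Kcnb2 ranged from -0.58 to 0.31. The cause was not tested.

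The share of cells with 2 or more of the genes was 3.30 to 19.1 percentage points higher in CASIN than in aged samples with 1 sample left out, but within batch 1 the difference turned, at -3.94 points, and CASIN has more of its samples in batch 1 than aged. Levels of 1 to 3 UMIs, as for Rcvrn in batch 2, are limited by depth.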
